A study of Mus musculus with 38 samples.

Results

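The mir-30 family was followed in small RNA libraries from sperm of 38 mice. The family was taken as the 6 rows that the deposited counts list under the microRNA (miRNA) class of reads matching the genome, mmu-mir-30a, mmu-mir-30b, mmu-mir-30c-1, mmu-mir-30c-2, mmu-mir-30d and mmu-mir-30e, out of 689 miRNA rows with a read in at least 1 mouse. The rows were chosen by name and not by their values, although earlier results of these data were known. The study fed C57BL6/J dams a control diet (CT, 20% protein) or a protein-restricted diet (PR, 8% protein) from the day a plug was found until their litters were weaned at 21 days, and then gave male offspring of either kind of dam 1 of these diets until they were killed at 11 to 13 weeks. This gave 10 CTCT, 9 CTPR, 9 PRCT and 10 PRPR mice, where the diet before weaning comes first in the name. No animal carried an engineered allele. The sperm were those that swam out of minced epididymides, and each library came from a single mouse. The mice came from 21 litters, and 17 of these gave 1 mouse to each post-weaning diet (8 litters of CT dams and 9 of PR dams). For brothers 47I1 and 47I2 the sample labels, which were followed here, give CTCT and CTPR, whereas the study's supplement gives the opposite.

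miRNAs are short RNAs cut from hairpin precursors that guide Argonaute proteins to messenger RNAs, mainly through pairing of bases 2 to 8 of the miRNA, the seed. Members of a family that share a seed can recognise many of the same messages. The mir-30 family is expressed in many tissues, where it is known for restraining genes of epithelial to mesenchymal transition, autophagy and cell growth, and sperm are known to acquire part of their small RNA from the epididymis as they mature.

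The 6 hairpins lie in pairs at 3 places in the genome (mm10, the same assembly as GRCm38). mir-30a (chr1:23272269-23272339, plus strand) and mir-30c-2 (chr1:23291701-23291784, plus strand, within an exon of the long noncoding RNA Gm27028) are 19361 bases apart. mir-30e (chr4:120772606-120772697, minus strand) and mir-30c-1 (chr4:120769534-120769622, minus strand) are 2983 bases apart and both sit in introns of Nfyc, which encodes a subunit of the transcription factor NF-Y. mir-30d (chr15:68341208-68341289, minus strand) and mir-30b (chr15:68337415-68337510, minus strand) are 3697 bases apart and overlap exons of the noncoding transcripts Gm20732 and Gm26621 respectively.

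Mature sequences were matched in RefSeq (GRCm38.p6) for 4 of the 6 rows, and are shown because they decide which rows can be told apart. Capitals mark the seed, bases 2 to 8 counted from the 5′ end.
miR-30a-5p: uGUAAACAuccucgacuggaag
miR-30e-5p: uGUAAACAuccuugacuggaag
miR-30c-5p: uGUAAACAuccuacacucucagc
miR-30a-3p: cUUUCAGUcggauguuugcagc
miR-30e-3p: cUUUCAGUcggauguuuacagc
miR-30c-1-3p: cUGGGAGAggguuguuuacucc
miR-30c-2-3p: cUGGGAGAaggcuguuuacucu
All 5p sequences shown carried the seed GUAAACA. miR-30e-5p differed from miR-30a-5p by the single substitution C13U, and miR-30c-5p differed from it by C13A, G14C, G18C, G19U and A20C. The 3p strands fell into 2 seed groups, with UUUCAGU in miR-30a-3p and miR-30e-3p and UGGGAGA in both miR-30c 3p strands. mir-30c-1 and mir-30c-2 give rise to the identical miR-30c-5p, so a read of that sequence cannot be traced to either hairpin. The counts are per hairpin and do not separate 5p from 3p reads.

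The libraries held between 4465281 and 7612603 reads matching the genome, and miRNA made up a very uneven part of them. miRNA reads ranged from 0.158% of reads matching the genome in 07C3 to 5.55% in 57P1, and their number from 7805 in 02A8 to 378918 in 57P1. The 9 mice of the 5 litters with the lowest litter numbers (02A, 07C, 08G, 09H and 14A) held 0.158% to 0.712%, and the other 29 mice 0.657% to 5.55%; the labels do not say what the number stands for. These mice belong to all 4 groups (3 CTCT, 2 CTPR, 2 PRCT and 2 PRPR). All values are therefore given on 2 scales, as reads per 1000000 reads matching the genome (RPM) and as a percentage of the mouse's miRNA reads. miRNA lists for cell types were set beside the labelled tissue. All 13 miRNAs listed for male germ cells had reads in at least 1 mouse and summed to between 2.65% and 11.8% of miRNA reads, while lists for epithelium (6 miRNAs), muscle (4) and blood (5), none with a member absent, summed to 1.84% to 4.92%, 3.93% to 14.9% and 0.0840% to 0.551%. The muscle list had the higher median, 9.43% against 5.91% for germ cells, but its member mir-143 alone had a median of 8.46%. The cells of origin were not tested. For sperm purity the paper relied on methylation of imprinted regions, and it also shows a representative RNA trace without ribosomal RNA peaks.

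mir-30 was an abundant family in every library. The 6 rows together took a median of 4.41% of miRNA reads (range 2.54% to 5.20%), against 12.8% (8.42% to 21.5%) for 12 let-7 rows and 0.890% (0.483% to 4.00%) for 9 rows of the mir-17-92 and mir-106b-25 clusters. By median RPM, mir-30a ranked 14, mir-30d 18, mir-30c-2 38, mir-30c-1 40, mir-30e 53 and mir-30b 58 among the 689 rows. mir-30a supplied about as many reads as the other rows combined, with a median of 49.7% of mir-30 reads (23.8% to 63.3%). mir-30d followed with 21.6% (13.6% to 36.8%), the 2 mir-30c rows with 16.6% together (8.65% to 32.7%), mir-30e with 6.05% (4.15% to 8.78%) and mir-30b with 5.31% (2.79% to 11.7%). mir-30e and mir-30b overlapped in range and their order is not firm, whereas mir-30a was above mir-30b and mir-30e in all mice and below mir-30d in 3 (07C3, 02A6 and 02A8).

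In RPM, summed mir-30 reads varied 67.9-fold among the mice (35.7-fold without 07C3), and most of this spread was shared by the miRNA class as a whole. The coefficient of variation over the 38 mice was 76.5% for summed RPM but 13.7% for the summed percentage of miRNA reads. Among single members it fell from 61.8% to 19.9% for mir-30d, from 88.0% to 25.8% for mir-30a, from 92.5% to 25.9% for mir-30e, and only from 70.7% to 43.0% for mir-30b. mir-30b was thus the least steady member per miRNA read, apart from the 2 separate mir-30c rows at 51.4% and 44.3%, whose sum varied by 29.4%. Counting error alone was small except in the poorest libraries. mir-30a in 07C3 was counted from 64 reads, a percentage of 0.626% with a 95% Wilson interval of 0.490% to 0.798%, and in 57P1 from 12216 reads, 3.22% (3.17% to 3.28%). mir-30b in 07C3, at 11 reads, was the smallest count apart from mir-30c-1. Intervals cover counting error only, since no molecular identifiers are described and PCR copies may be counted.

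The first comparison asked whether restriction after weaning alone, in sons of CT dams, went with a different mir-30 level. Summed mir-30 was 669 ± 434 RPM (SD, n = 10) in CTCT and 1146 ± 853 RPM (SD, n = 9) in CTPR, while the same reads made up 4.47% ± 0.688 (SD, n = 10) and 4.42% ± 0.811 (SD, n = 9) of miRNA reads. The higher mean in RPM was smaller than the spread among CTPR mice, and on the scale of miRNA reads it was not there.

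mir-30a, the main member, had a lowest, median and highest value of 9.91, 395 and 763 RPM in CTCT and of 23.3, 633 and 1790 RPM in CTPR. The groups overlapped, and 3 of 9 CTPR mice were above every CTCT mouse. The fitted log2 difference was 0.87 (SE 0.54, adjusted p = 0.203, edgeR quasi-likelihood test with Benjamini-Hochberg adjustment). As a percentage of miRNA reads, mir-30a ran from 0.626% over 2.38% to 3.14% in CTCT and from 1.37% over 2.56% to 3.22% in CTPR, with a log2 difference of 0.08 (95% confidence interval -0.29 to 0.46).

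mir-30e, which differs from miR-30a-5p by C13U in its 5p strand, had the largest log2 difference of the 6 rows between these groups. Its lowest, median and highest values were 2.01, 36.1 and 72.6 RPM in CTCT and 6.31, 89.3 and 225 RPM in CTPR. The groups overlapped, although 5 of 9 CTPR mice exceeded all CTCT mice. The log2 difference was 1.20 (SE 0.47, unadjusted p = 0.0131, adjusted p = 0.130, edgeR). In miRNA reads, it was at 0.127%, 0.253% and 0.301% in CTCT and at 0.124%, 0.319% and 0.405% in CTPR. Here 7 of 9 CTPR mice lay above the highest CTCT mouse and the other 2, 09H5 and 49K3, lay below the CTCT median. With these both included the log2 difference was 0.31 (SE 0.18, unadjusted p = 0.0881, adjusted p = 0.804, edgeR). The count of 7 follows the sample labels. Grouped as in the supplement, 47I2 (0.319%) would be the highest CTCT mouse and 47I1 (0.244%) a CTPR mouse, and the count would be lower. How many of all rows reach such counts was not examined, for mir-30e or the other members.

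mir-30d had 15.3, 128 and 267 RPM (lowest, median, highest) in CTCT and 26.8, 222 and 385 RPM in CTPR. mir-30b had 1.70, 37.5 and 66.6 RPM in CTCT and 8.05, 50.8 and 106.4 RPM in CTPR. The 2 mir-30c rows summed had 12.7, 89.1 and 207 RPM in CTCT and 14.8, 196 and 331 RPM in CTPR. In each of these 3 the groups overlapped and 3 CTPR mice were above all CTCT mice. Their log2 differences in RPM were 0.55 (mir-30d), 0.49 (mir-30b) and 0.65 (summed mir-30c), with adjusted p values of 0.314, 0.332 and 0.245 in edgeR. Per miRNA read the differences were -0.13, -0.36 and -0.24.

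None of the 6 members passed an adjusted p of 0.05 in edgeR (background 0%, 0 of 231 rows tested). DESeq2 scales libraries by its own factors and so does not test RPM. It also had 0 of 231 rows, while 16 rows, 6.93%, had an unadjusted p under 0.05, with mir-30e the one member among them. In edgeR with reads matching the genome, 2 of 6 members had an unadjusted p under 0.05, mir-30c-2 and mir-30e, beside 72 of 231 rows, a background of 31.2%. With litter 47I grouped as in the supplement, 0 of 6 did. All 6 members had a log2 difference above 0, and so did 98.3% of rows. The median over the members was 0.71 and over all rows 0.80. With miRNA reads as library size, 0 of 6 members had an unadjusted p under 0.05 against a background of 5.91% of 220 rows (0 adjusted), and the medians were -0.02 and 0.03. On both scales the median of the members thus lay close to that of all rows. The marker lists had median log2 differences in RPM of 1.03 for germ cell, 0.86 for epithelium, 0.79 for muscle and 0.81 for blood miRNAs (12, 6, 4 and 3 rows tested). Per miRNA read these were 0.32, 0.03, -0.03 and 0.08, and their part in the mir-30 values was not tested. In a bulk library, fewer cells of a type and less RNA per cell cannot be told apart.

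A single library set the outcome of this test. Without 02A8, the CTPR mouse with the lowest mir-30 level in RPM, 29 of 232 rows had an adjusted p under 0.05 in edgeR (background 12.5%), all of them higher in CTPR, and mir-30e was the member among them (log2 difference 1.34, adjusted p = 0.0458). Its CTCT brother 02A6, at 133.5 RPM of summed mir-30 against 79.2 RPM in 02A8 and with 0.294% against 0.170% of miRNA, was still in that fit. Without all 9 mice of the 5 litters with low miRNA content, no row had an adjusted p under 0.05 (82 of 237 unadjusted, a background of 34.6%), and mir-30e had a log2 difference of 1.12 (adjusted p = 0.111).

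**Figure D1:**
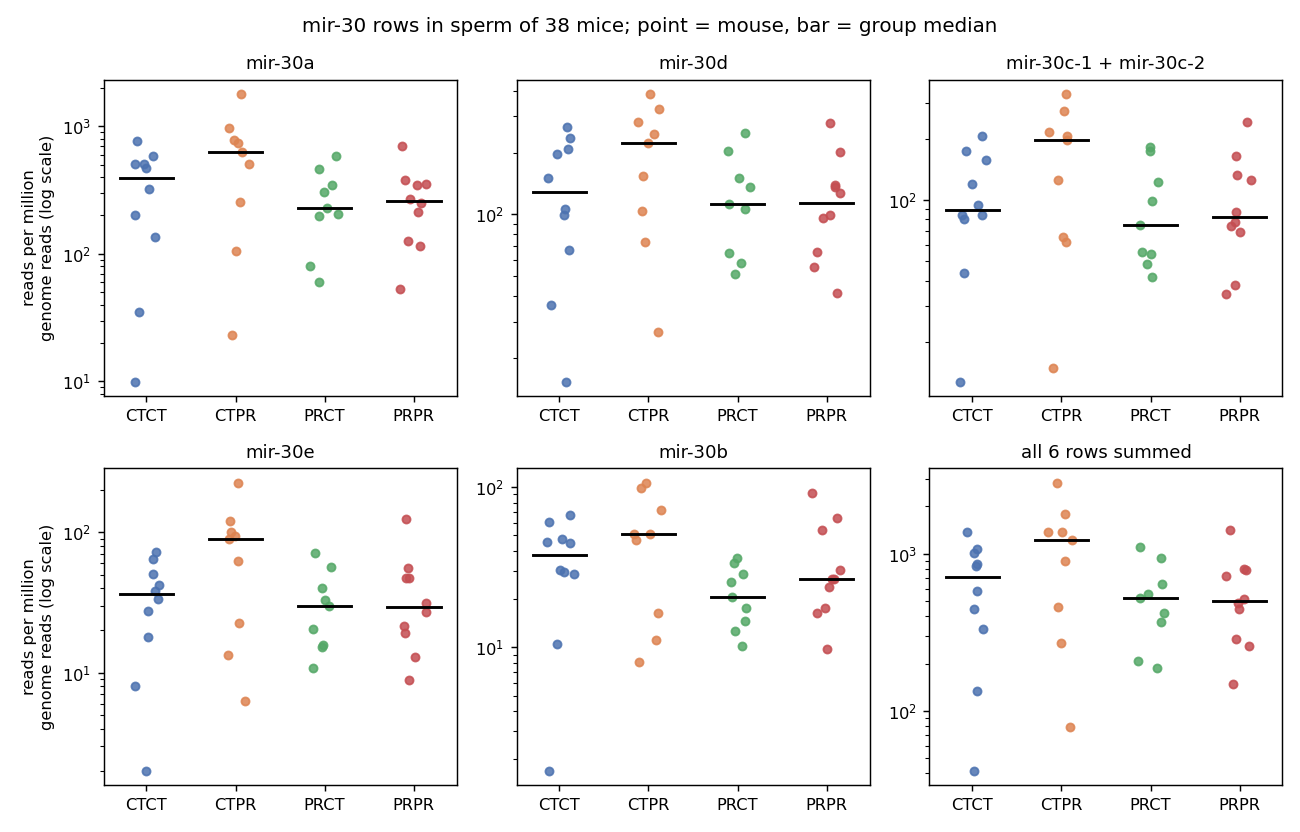
RPM (vertical axes, log scale) for each mir-30 row or sum of rows in the 4 diet groups; points are mice and bars are group medians. For mir-30a the CTPR median of 633 RPM was above the CTCT median of 395 RPM, and all groups overlapped.

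**Figure D2:**
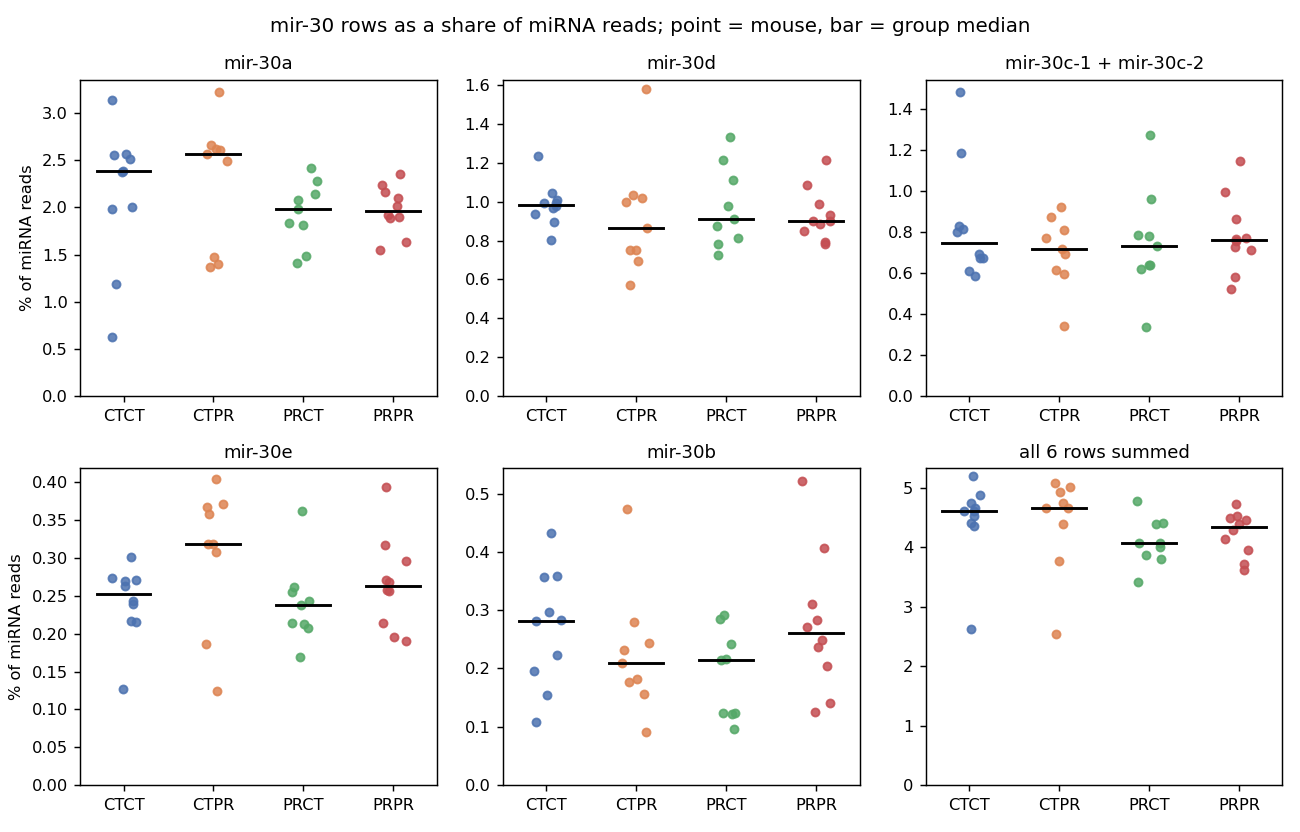
The same rows as a percentage of each mouse's miRNA reads (vertical axes, starting at 0). The medians of the summed rows lay between 4.07% (PRCT) and 4.67% (CTPR), and for mir-30e 7 of 9 CTPR mice lay above the highest CTCT mouse.

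The second comparison set restriction before weaning alone (PRCT) and restriction throughout (PRPR) against CTCT. Summed mir-30 was 550 ± 310 RPM (SD, n = 9) in PRCT and 585 ± 367 RPM (SD, n = 10) in PRPR, or 4.09% ± 0.397 (SD, n = 9) and 4.23% ± 0.366 (SD, n = 10) of miRNA reads. Both means were below that of CTCT on either scale by less than 1 SD. mir-30a had 59.7, 230 and 583 RPM (lowest, median, highest) in PRCT and 53.3, 259 and 704 RPM in PRPR, within the range of CTCT. mir-30e had 10.8, 30.0 and 71.5 RPM in PRCT and 8.83, 29.3 and 124 RPM in PRPR, and 1 PRPR mouse, 40H3, exceeded the CTCT range.

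In RPM the members' log2 differences from CTCT ran from -0.73 (mir-30b) to 0.06 (mir-30c-2) for PRCT and from -0.33 (mir-30a) to 0.14 (mir-30e) for PRPR. None of the 6 had an unadjusted p under 0.05 in edgeR in either comparison, with a background of 0.433% of 231 rows in each. In edgeR and DESeq2 alike, 0 rows had an adjusted p under 0.05. DESeq2, on its own scaling and not in RPM, had 3.03% (PRCT) and 4.33% (PRPR) of rows at an unadjusted p under 0.05, mir-30b among the former. The median over members in RPM was -0.25 for PRCT and -0.07 for PRPR, beside -0.07 and 0.05 for all rows. These comparisons share the CTCT mice with each other and with the first one.

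mir-30b had the most negative log2 difference of PRCT from CTCT in RPM. It was at 10.3, 20.6 and 36.3 RPM (lowest, median, highest) in PRCT and at 9.73, 26.7 and 92.1 RPM in PRPR. As a percentage of miRNA reads it was at 0.0953%, 0.214% and 0.292% in PRCT, at 0.108%, 0.282% and 0.433% in CTCT and at 0.125%, 0.260% and 0.522% in PRPR. The groups overlapped, and PRCT had the lowest maximum of the 4 groups. The log2 difference of PRCT from CTCT per miRNA read was -0.56 (SE 0.27, unadjusted p = 0.0433, adjusted p = 0.667, edgeR), and mir-30b was the only member with an unadjusted p under 0.05 there, against a background of 5.45% of 220 rows. The same difference for PRPR was 0.01 (95% confidence interval -0.50 to 0.53), and 0 of 6 members had an unadjusted p under 0.05 (background 3.18%).

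On the same scale the marker lists had differences of their own. For PRCT against CTCT, 11 of 12 germ cell rows had a log2 difference above 0 (median 0.31), beside 0 of 6 epithelium rows (-0.22), 2 of 4 muscle rows (-0.22) and 1 of 3 blood rows (-0.55). Of all 220 rows, 49.1% were above 0 (median -0.01). For PRPR against CTCT, 12 of 12 germ cell rows were above 0 (0.45), beside 0 of 6 epithelium rows (-0.15), 0 of 4 muscle rows (-0.15) and 2 of 3 blood rows (0.04). Here 60% of all 220 rows were above 0 (median 0.07). None of the listed rows had an adjusted p under 0.05 in edgeR, and their part in the mir-30 values was not tested.

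The third comparison asked whether restriction after weaning went with a different level in sons of PR dams. In RPM the log2 differences of PRPR from PRCT ran from -0.02 (mir-30d) to 0.70 (mir-30b), with 0 of 6 members at an unadjusted p under 0.05 (background 0.433%, edgeR). In DESeq2, on its own scaling and not in RPM, this background was 3.46%, with mir-30b among those rows. For mir-30a the difference in RPM was 0.03, with a wide 95% confidence interval of -1.07 to 1.13. Per miRNA read the interval for mir-30a narrowed to -0.35 to 0.40 around 0.03. mir-30b was the one member with an unadjusted p under 0.05 per miRNA read (log2 difference 0.57, SE 0.27, unadjusted p = 0.0378, adjusted p = 0.939, edgeR), beside a background of 4.55% of 220 rows. This difference, that of PRCT from CTCT and the interaction share the same 9 PRCT mice and are not independent. With the litter as a block in the 34 mice with a brother, 2 of 231 rows (0.866%) had an unadjusted p under 0.05 in RPM, against 0 in the same mice without the block, and mir-30b had a log2 difference of 0.36 (adjusted p = 0.999).

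The dependence of the post-weaning difference on the diet before weaning was tested as an interaction, the difference of CTPR from CTCT minus that of PRPR from PRCT. In RPM it was 0.84 for mir-30a (SE 0.77, adjusted p = 0.647, edgeR) and 0.92 for mir-30e (SE 0.69, adjusted p = 0.647), and 0 of 6 members had an unadjusted p under 0.05 (background 2.16%, edgeR). In DESeq2, on its own scaling and not in RPM, this background was 3.9%, with mir-30b among those rows. The median over the members in RPM was 0.70 and over all rows 0.67. Per miRNA read, mir-30b stood at -0.93 (SE 0.38, unadjusted p = 0.0172, adjusted p = 0.763, edgeR), the one member of 6 with an unadjusted p under 0.05 beside 4.09% of 220 rows. No row passed the adjusted threshold on either scale. With the litter as a block in the 34 mice with a brother, 12 rows (5.19%) had an unadjusted p under 0.05 in RPM, against 2 in the same mice without the block, none of them after adjustment.

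Brothers from the same litter tended to deviate from their group means together in mir-30 RPM. After removing group means, log2 RPM of the summed rows in the 17 pairs of brothers correlated at 0.79 (Pearson's r, a description without a test), and miRNA content itself at 0.83. Per miRNA read the correlation was 0.15 for the sum, 0.60 for mir-30a, 0.54 for mir-30d, 0.51 for summed mir-30c, 0.35 for mir-30e and 0.14 for mir-30b. Deviations of the family total were therefore shared by brothers mainly in RPM (Spearman's rho 0.72, against 0.32 per miRNA read). Those of mir-30a, mir-30d and summed mir-30c were shared on both scales, with r in RPM of 0.84, 0.75 and 0.59. The log2 difference in the total between brothers nonetheless varied less per miRNA read (SD 0.34 for CT dams, 0.15 for PR dams) than in RPM (0.99, 0.62).

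Within litters of CT dams, the CTPR brother had more summed mir-30 RPM in 5 of 8 litters, as did the median row of the 231 (5 of 8). The log2 difference between brothers averaged 0.26 ± 0.99 (SD, n = 8), from -1.23 in litter 49K to 1.76 in litter 57P. In litter 57P the CTCT brother was at 835 RPM and the CTPR brother at 2828 RPM, and in litter 49K they were at 1071 and 458 RPM. Per miRNA read the CTPR brother was higher in 4 of 8 litters, with a mean of -0.12 ± 0.34 (SD, n = 8). Within litters of PR dams, the PRPR brother was higher in RPM in 5 of 9 litters (mean -0.03 ± 0.62, SD, n = 9) and per miRNA read in 4 of 9 (0.04 ± 0.15). The spread exceeded the mean in all 4 of these cases. With litter as a block in edgeR, which uses the 34 mice with a brother, the log2 differences of CTPR from CTCT were 0.34 for mir-30a and 0.74 for mir-30e (adjusted p = 0.202), and in the same 34 mice without the block 0.67 and 1.04 (adjusted p = 0.437 and 0.376). The block fit had 55 of 231 rows at an unadjusted p under 0.05, a background of 23.8%, with mir-30e the one member among them, and the fit of the same mice without the block had 20 (8.66%).

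**Figure D3:**
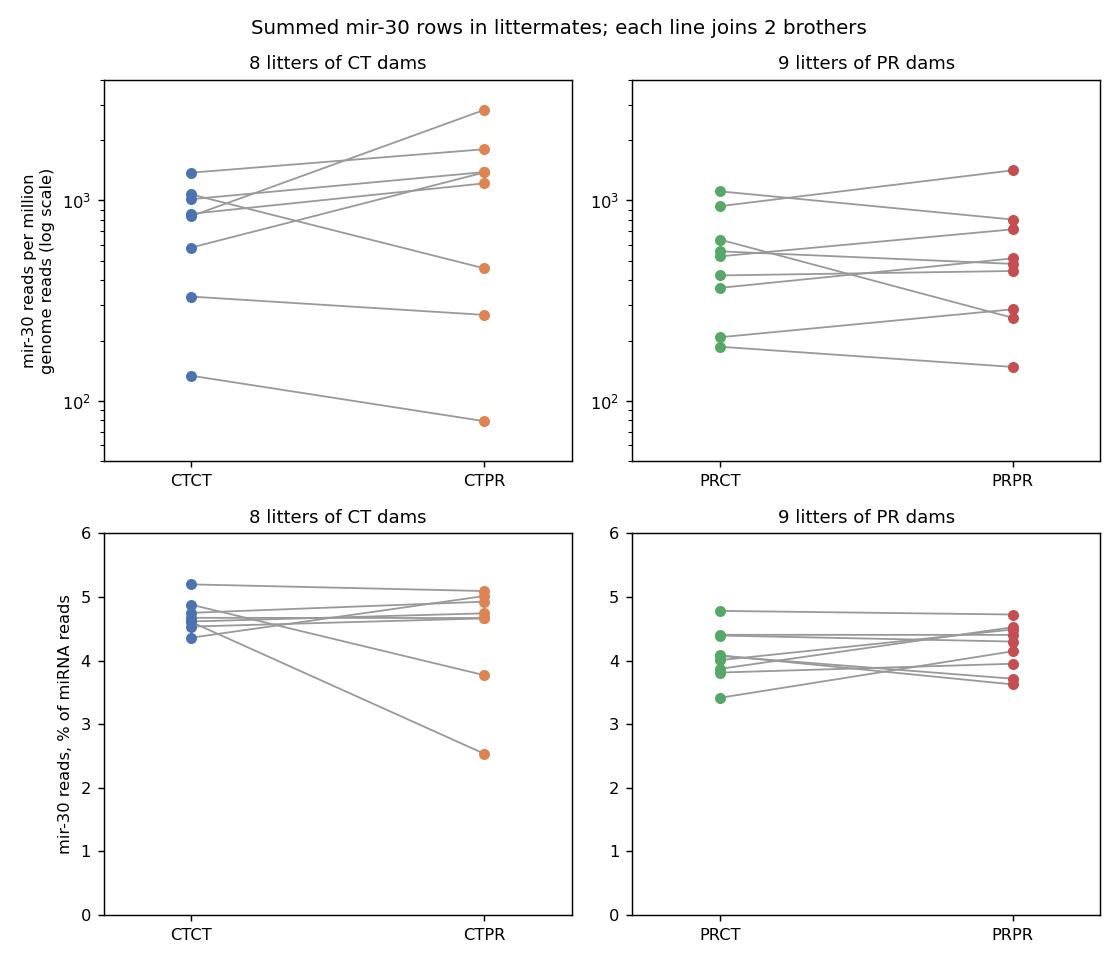
Summed mir-30 rows in pairs of brothers, in RPM (upper panels, log scale) and as a percentage of miRNA reads (lower panels, starting at 0), for 8 litters of CT dams and 9 of PR dams; each line joins the brothers of a litter. Values ran from 79.2 RPM to 2828 RPM in litters of CT dams, and litter 49K went from 4.61% in the CTCT to 2.54% in the CTPR brother.

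The division of mir-30 reads among the members was also compared between brothers. mir-30e took a larger part of mir-30 reads in the CTPR brother in 7 of 8 litters of CT dams, litter 09H being the exception (5.38% in CTCT, 4.95% in CTPR). The largest difference was in litter 57P, with 4.60% in the CTCT and 7.94% in the CTPR brother, and the mean log2 difference was 0.31 ± 0.29 (SD, n = 8). With litter 47I grouped as in the supplement the count was 6 of 8 and the mean 0.22 ± 0.37. In litters of PR dams it was higher in the PRPR brother in 6 of 9 (0.10 ± 0.26, SD, n = 9). mir-30b went the other way in CT litters, lower in the CTPR brother in 5 of 8 (-0.30 ± 0.55), and was higher in the PRPR brother in 7 of 9 PR litters (0.36 ± 0.69). mir-30a was the steadiest, with a mean of 0.03 ± 0.08 in CT litters and -0.02 ± 0.16 in PR litters. mir-30d was higher in the brother on PR in 3 of 8 and 4 of 9 litters and summed mir-30c in 5 of 8 and 4 of 9. These values were picked out after they were seen and are given without a test; parts of 1 total also move against each other by construction.

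The division among members followed the miRNA content of the library. In the 9 mice of the 5 litters with low miRNA content, mir-30a made up 23.8% to 41.1% of mir-30 reads, and in the other 29 mice 43.7% to 63.3%, without overlap. mir-30d made up 20.3% to 36.8% in the former and 13.6% to 28.6% in the latter. Over the means of the 21 litters, mir-30a's part rose with log2 miRNA content (Pearson's r = 0.90, permutation p = 1e-05, the smallest that 100000 permutations can give, adjusted 1.67e-05; Spearman's rho = 0.76, permutation p = 0.00012, adjusted 0.0003). mir-30d's part fell with it (r = -0.87, permutation p = 1e-05, adjusted 1.67e-05; rho = -0.77, permutation p = 0.00011, adjusted 0.0003). So did that of summed mir-30c (r = -0.87, permutation p = 1e-05, adjusted 1.67e-05; rho = -0.70, permutation p = 0.00051, adjusted 0.00085). mir-30e passed an adjusted p of 0.05 by neither measure (r = 0.24, permutation p = 0.294, adjusted 0.294, and rho = 0.32, permutation p = 0.163, adjusted 0.163). mir-30b fell with it by rho only (r = -0.26, permutation p = 0.253, adjusted 0.294, and rho = -0.46, permutation p = 0.0366, adjusted 0.0458). These 5 relations were adjusted together, the tests were two-sided, and the parts sum to a whole and so are not independent. They were not among the planned tests. The permutations treat the 21 litters as exchangeable, although the 5 litters with low miRNA content stand apart in mir-30a's part.

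For mir-30a, mir-30d and summed mir-30c the sign was the same in both kinds of litter, and the relation was weaker without the poorest libraries. For mir-30a, r was 0.97 in the 11 litters of CT dams and 0.66 in the 10 of PR dams. For mir-30d it was -0.93 and -0.66, and for summed mir-30c -0.95 and -0.61. Without litters 07C and 02A, the 2 farthest from the median content, r was 0.79 for mir-30a, -0.72 for mir-30d and -0.75 for summed mir-30c. Over the 16 litters left without the 5 of low content, r was 0.44, -0.46 and -0.30. For mir-30e, r was 0.24 over all 21 litters and 0.56 over the 16 (rho 0.51). For mir-30b, r was -0.26 and -0.30 and rho was -0.46 and -0.44. Over the 16 litters, rho was 0.46 for mir-30a, -0.47 for mir-30d and -0.33 for summed mir-30c. Members that followed miRNA content were thus not set apart from the others there. Low litter numbers and low miRNA content cannot be told apart here.

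**Figure D4:**
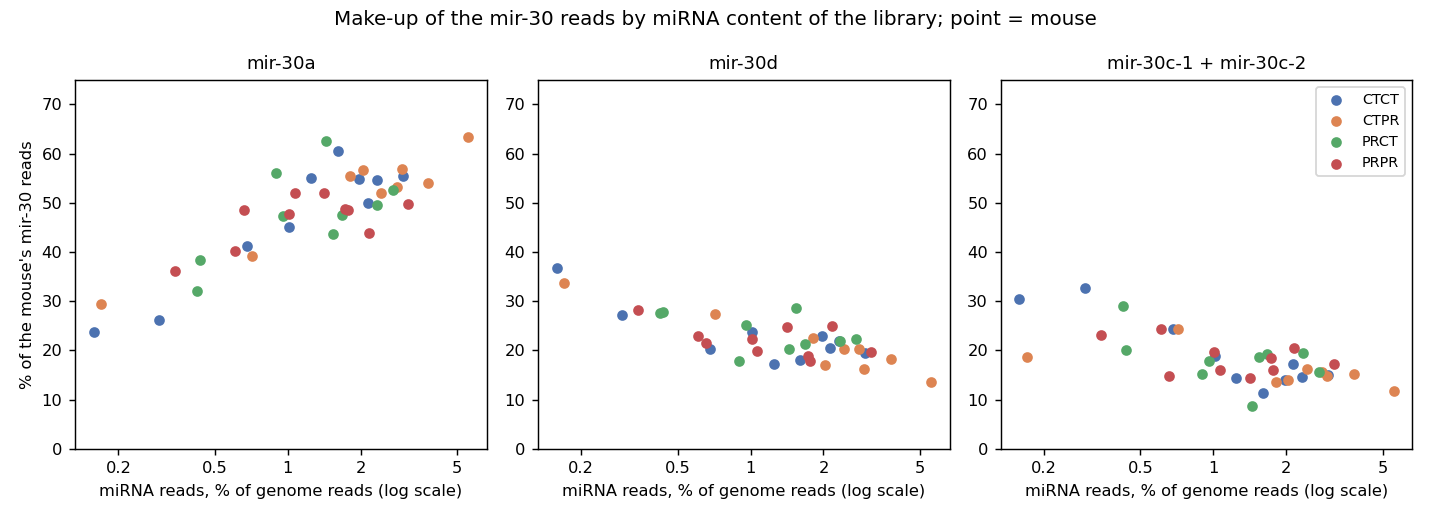
Percentage of each mouse's mir-30 reads listed under mir-30a, mir-30d and the 2 mir-30c rows (vertical axes) against miRNA reads as a percentage of reads matching the genome (horizontal axes, log scale); points are mice, coloured by diet group. mir-30a climbed from 23.8% in the library with the lowest miRNA content, 07C3, to 63.3% in the one with the highest, 57P1, while mir-30d went from 36.8% to 13.6%.

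The 2 mir-30c rows were listed in very different proportions from mouse to mouse. mir-30c-1 held a median of 48.3% of mir-30c reads, with more reads than mir-30c-2 in 16 mice and fewer in 22. Its part ran from 21.7% in 51O1 (157 against 565 reads) to 81.7% in 53M1 (653 against 146) among mice with reads in both rows, and in 40H1 it was 72.2% (920 against 355). In 02A8 and 08G3, mir-30c-1 had 0 of 68 and 0 of 273 mir-30c reads, while mir-30c-2 was present. For counting error alone, the limit of 3 counts for a count of 0 gives a listed part of up to 4.41% and 1.10% (95% Wilson upper bounds 5.35% and 1.39%). The split varied far more among mice than counting error gives (chi-square per degree of freedom 70.6). These limits therefore do not bound how much either hairpin contributed. Since both hairpins give the same 5p sequence, the single rows are uncertain and the sum is the firmer value. This applies to the mir-30c-2 difference of CTPR from CTCT, a log2 value of 0.94 in RPM (unadjusted p = 0.0463, adjusted p = 0.155, edgeR) beside 0.34 for mir-30c-1 and 0.65 for their sum.

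**Figure D5:**
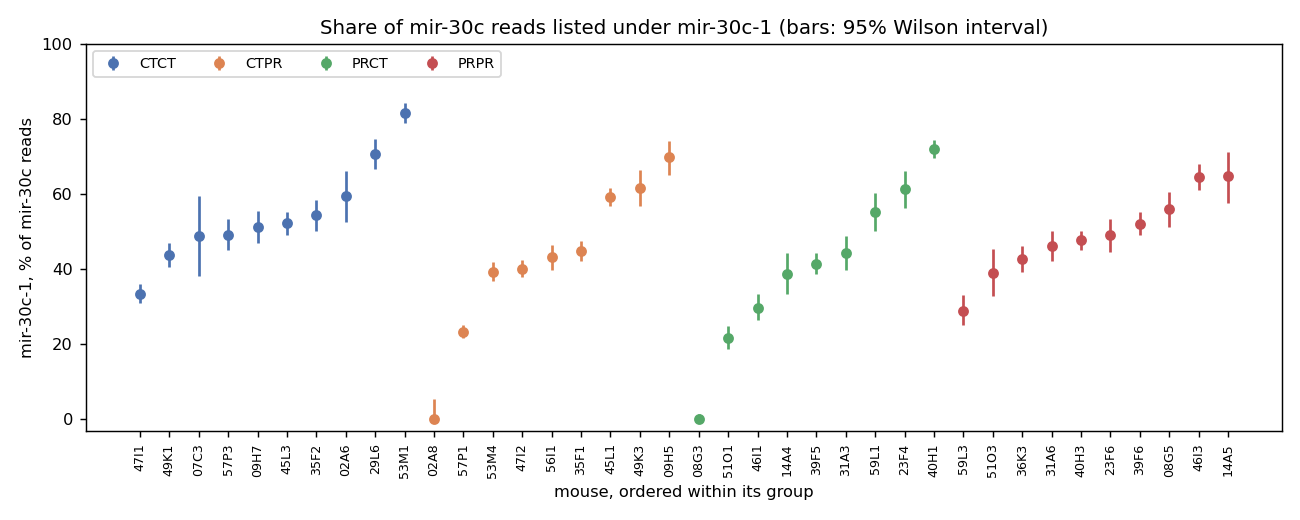
Percentage of mir-30c reads listed under mir-30c-1 in each mouse (vertical axis), ordered by value within the diet group (horizontal axis), with 95% Wilson intervals for counting error. Values spread from 0% in 02A8 and 08G3 to 81.7% in 53M1, and the groups overlapped.

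Members of the family did not rise and fall as a unit per miRNA read. In RPM all pairs of members ran together over the 38 mice (Spearman's rho 0.64 to 0.97, lowest for mir-30c-1 with mir-30c-2). All members share the miRNA content of the library, and its part in this was not tested. Per miRNA read, mir-30a ran against mir-30d (rho -0.39) and summed mir-30c (-0.44) and with mir-30e (0.36). mir-30d ran with summed mir-30c (0.73). mir-30a and mir-30c-2, neighbours on chromosome 1, had a rho of -0.19, mir-30b and mir-30d of 0.15 and mir-30e and mir-30c-1 of -0.03. Values with a single mir-30c row carry the uncertainty in how shared miR-30c-5p reads were listed, so they do not show whether neighbouring hairpins vary together. These are descriptions over 38 mice that share litters, library depth and the denominator.

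Among 79 miRNAs outside the family with a median of at least 100 reads per mouse, those most like the summed mir-30 percentage over the 38 mice were mir-101b (rho 0.54), mir-29a (0.52), mir-143 (0.50), mir-340 (0.50) and mir-27b (0.47). mir-143, a miRNA of smooth muscle and other mesenchymal cells, belongs to the muscle list. The summed lists for muscle and epithelium had a rho of 0.49 and 0.42 with mir-30, against -0.01 for germ cells and 0.11 for blood. With a median of 8.46% of miRNA reads, mir-143 made up most of the muscle list, so the rho of that list is not separate from its own. The summed muscle list ranged over 3.93% to 13.2% of miRNA reads in CTCT, 4.16% to 14.9% in CTPR, 7.94% to 12.5% in PRCT and 7.25% to 10.9% in PRPR, and the epithelium list over 2.52% to 4.92%, 2.01% to 4.88%, 1.84% to 4.16% and 2.88% to 4.45%. Both lists had reads in all groups and their part in the mir-30 level was not tested. The let-7 rows had a rho of -0.37 with mir-30.

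For comparison, 12 of 12 let-7 rows had a log2 difference above 0 in RPM between CTPR and CTCT, with a median of 0.53, as had 7 of 7 rows tested of the mir-17-92 and mir-106b-25 clusters, with a median of 0.80. So had 98.3% of all 231 rows, with a median of 0.80. The median for mir-30 was 0.71. None of these family rows had an adjusted p under 0.05 in edgeR in any of the 5 comparisons. Per miRNA read the medians were -0.25 for let-7, 0.09 for the clusters (8 rows tested) and -0.02 for mir-30, and the differences between families were not tested.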

How the data were processed

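Per the labels, small RNA of sperm was sequenced and mapped to mm10. The authors assigned reads with the SPORTS 1.0 pipeline to small RNA classes and class members and deposited whole read counts per mouse, not normalised and not pooled; database versions and mismatch settings are not given in the sources used here. The mir-30 rows, comparison families and marker lists were chosen with earlier results of these data known. No mir-30 row was among reads that did not match the genome.

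The quasi-likelihood F-test of edgeR 4.0.16 (R 4.3.3) was applied to these counts (all 4 groups in 1 fit, edgeR's filter on low counts, 231 of 689 miRNA rows), with reads matching the genome, the study's own denominator, as library size and, as an alternative, miRNA reads (220 rows). P values were adjusted by Benjamini-Hochberg over all rows tested; 0.05 was the threshold. SEs are the log2 difference divided by the root of the F statistic, and 95% confidence intervals use the t quantile. The fit treats mice as independent, although brothers share a dam; 34 mice have a brother in the other post-weaning group, so litter pairs the samples. Pair deviations from group means correlated at 0.79 for summed mir-30 RPM and 0.15 per miRNA read. The script was tested on simulated counts. Other steps used Python 3.11.15, numpy 2.4.6, scipy 1.17.1, pandas 2.3.3 and matplotlib 3.10.9.

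Named rows were the 6 members and the 5 other rows most like their sum. Alternatives were TMM factors, no filter, DESeq2 1.42.0 with its own library scaling, the older quasi-likelihood method, all class members in the fit, litter as a block, the supplement's grouping of litter 47I, leaving out that litter, 4 mice whose class totals do not add up to their genome-matching reads or are cut short, or each mouse in turn. Summing both mir-30c rows, using only mice with a brother, and leaving out the 5 litters with the lowest numbers were chosen after seeing the data. The tests of members' parts against miRNA content were not planned beforehand.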

Additional observations from a re-analysis of the deposited data

Results flagged for a closer look

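Single mice or litters stood apart from their group in 11 of 96 groups of 4 to 10 values that were examined, by Dixon's test at the 95% level; about 1 in 20, or 4.8 of 96, would be expected by chance. The 3 mice 07C3, 02A8 and 08G3, with low miRNA content, account for 6 of these. In 07C3 (CTCT), summed mir-30 made up 2.63% of miRNA reads (next lowest 4.36%) and mir-30e 0.127% (0.215%). In 02A8 (CTPR), mir-30b made up 0.474% of miRNA reads (next highest 0.28%), mir-30c-2 0.871% (0.491%) and mir-30d 1.58% (1.03%). In 08G3 (PRCT), mir-30e made up 0.362% (0.262%). 02A8 and 08G3 are also the 2 mice with no mir-30c-1 read.

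The PRPR mouse 40H3 was highest in its group in RPM, at 704 RPM for mir-30a (next highest 382), 124 RPM for mir-30e (55.7) and 1413 RPM for summed mir-30 (803). Its miRNA content was 3.15% of reads matching the genome, the highest of its group.

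Among litters of PR dams, the log2 difference of the PRPR from the PRCT brother was 1.54 for mir-30c-1 RPM in litter 46I (next highest 0.26) and 1.12 for the summed mir-30c percentage of miRNA reads in litter 59L (0.26).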

How the results depend on the processing

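The count of miRNA rows at an adjusted p under 0.05 stayed at 0 in all 5 comparisons under all alternatives except leaving out CTPR mouse 02A8, which gave 29 rows for CTPR against CTCT (range 0 to 29 over single mice left out). With all class members in the fit, of 8621 features of all classes 3 passed for PRPR against CTCT, 1 for PRPR against PRCT and 1 for the interaction, none of them a miRNA. Log2 ratios of mean summed mir-30 to CTCT moved by less than the mean within-group SD of log2 RPM. Mean differences between brothers moved by less than their SD over litters. These limits are wide and do not show a stable level. The CTPR and CTCT means were 1146 and 669 RPM but 4.42% and 4.47% of miRNA reads. The unadjusted count for CTPR against CTCT was 72, ran from 9 (older quasi-likelihood method) to 83, and from 19 to 116 over single mice left out: 38 without 07C3, 45 without 09H7, 116 without 47I1, 114 without 02A8, 109 without 09H5, 42 without 47I2 and 19 without 57P1. It was 30 with litter 47I grouped as in the supplement. For the others it ran from 0 to 17, and from 0 to 26 over single mice left out.

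With litter as a block, fitted to pairs of brothers with reads matching the genome as library size, no row had an adjusted p under 0.05, and the block changed no call there; it was not run with miRNA reads. PRCT and PRPR against CTCT come from different litters and could not be blocked.

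Apart from single mice left out, 46 log2 differences of a member in a comparison changed sign under an alternative and 310 did not. Those that changed had an adjusted p of 0.733 or above in their fit. The cause was not tested. For CTPR against CTCT, mir-30b, mir-30c-1 and mir-30d were -0.36, -0.54 and -0.13 with miRNA reads as library size, -0.36, -0.48 and -0.13 with TMM and -0.26, -0.53 and -0.082 with DESeq2. For PRCT against CTCT, mir-30c-2 was -0.00908 with the supplement's groups, -0.10 without 4 mice with incomplete totals and -0.14 without the 5 low-numbered litters, and without litter 47I mir-30d was 0.0202 and mir-30e 0.0370. For PRPR against CTCT, mir-30b was 0.0124 with miRNA reads, 0.00533 with DESeq2 and 0.11 without litter 47I, mir-30d 0.000526 without litter 47I, mir-30e -0.0399 with the supplement's groups and -0.0344 without the 5 litters, and mir-30c-2 -0.0552 without the 4 mice and -0.0441 without the 5 litters. For PRPR against PRCT, mir-30c-2 was -0.21 with miRNA reads, -0.22 with TMM, -0.22 with DESeq2, -0.00141 with the older method, -0.00140 with all class members in the fit, -0.0926 with the block and -0.0444 in the same mice without it, mir-30a was -0.0322, -0.00538, -0.0409, -0.0258 and -0.0127 with TMM, DESeq2, the block, no block in the same mice and without the 5 litters, and mir-30d 0.0263 without the 4 mice. For the interaction, mir-30c-1 was -0.97, -0.81 and -0.93 and mir-30d -0.0733, -0.0467 and -0.0162 with miRNA reads, TMM and DESeq2, and mir-30c-1 was -0.35 with the block, -0.0473 in the same mice without it, -0.15 with the supplement's groups, -0.0144 without litter 47I and -0.14 without the 4 mice.

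Over single mice left out, signs changed in PRCT against CTCT for mir-30c-2 (-0.12 to 0.37), mir-30d (-0.32 to 0.0203) and mir-30e (-0.37 to 0.0370), in PRPR against CTCT for mir-30b (-0.30 to 0.11), mir-30c-1 (-0.32 to 0.0285), mir-30c-2 (-0.17 to 0.38), mir-30d (-0.37 to 0.000593) and mir-30e (-0.26 to 0.31), in PRPR against PRCT for mir-30a (-0.23 to 0.25), mir-30c-2 (-0.23 to 0.19), mir-30d (-0.23 to 0.17) and mir-30e (-0.12 to 0.50), and in the interaction for mir-30b (-0.40 to 0.0645) and mir-30c-1 (-0.42 to 0.26).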
